A study of Sus scrofa with 48 samples.

Results

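Liver and kidney of the same 16 F2 pigs were compared, using 32 of the 48 arrays of the series. All 16 arrays whose source is F2 liver and all 16 whose source is F2 kidney were taken and paired by the pig number in the title. The pigs were Swiss Large White, and the 8 F2 C and 8 F2 E animals descended from F0 boars fed a standard diet without or with added methylating micronutrients from month 1 to month 10 of age. F1 and F2 animals received the standard diet, and each line held 4 castrated barrows and 4 females. RNA came from frozen pieces of whole organ taken at slaughter, so each array reads the mixture of cells in its piece.

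Liver makes most circulating proteins, clears ammonia as urea, forms bile acids and modifies foreign compounds. Kidney filters plasma and recovers salt, sugar, amino acids and phosphate along its tubules. It also adjusts acid, water and calcium balance and secretes hormones.

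The organs differed in most of the transcripts that could be measured. Of 32805 probes present, 24124 (73.5%) differed between liver and kidney in the paired limma test at a Benjamini-Hochberg adjusted p under 0.05, with 11464 higher in liver and 12660 higher in kidney. At 2-fold or more, 8928 (27.2%) were called, 4093 (12.5%) higher in liver and 4835 (14.7%) higher in kidney. Among 1645 named genes with a probe present, 409 (24.9%) were at least 2-fold higher in liver and 261 (15.9%) in kidney. The median over all probes was -0.03 log2 (liver minus kidney throughout), and over all named genes it was 0.16.

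The split between organs rested on the scaling of the arrays. Liver held 47.5% of the called probes and 45.8% of those at 2-fold or more. With each array's median signal scaled to its 75th percentile, these shares were 65.7% and 59.3%, and with the authors' processed signal scaled the same way 50.3% and 47.5%. The median over all probes moved with them, to 0.33 and 0.01, and every direction below is relative to this median.

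Most large differences held in every animal. Of 4093 probes at least 2-fold higher in liver, 3461 were higher in liver in every measured pair, and on 2632 every liver array lay above every kidney array. For the 4835 probes of kidney these numbers were 4050 and 3064. At 16-fold or more there were 431 probes in liver and 318 in kidney. Arrays of 1 organ resembled each other closely, with a median correlation of 0.979 among livers and 0.980 among kidneys, against 0.850 between the organs.

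**Figure D1:**
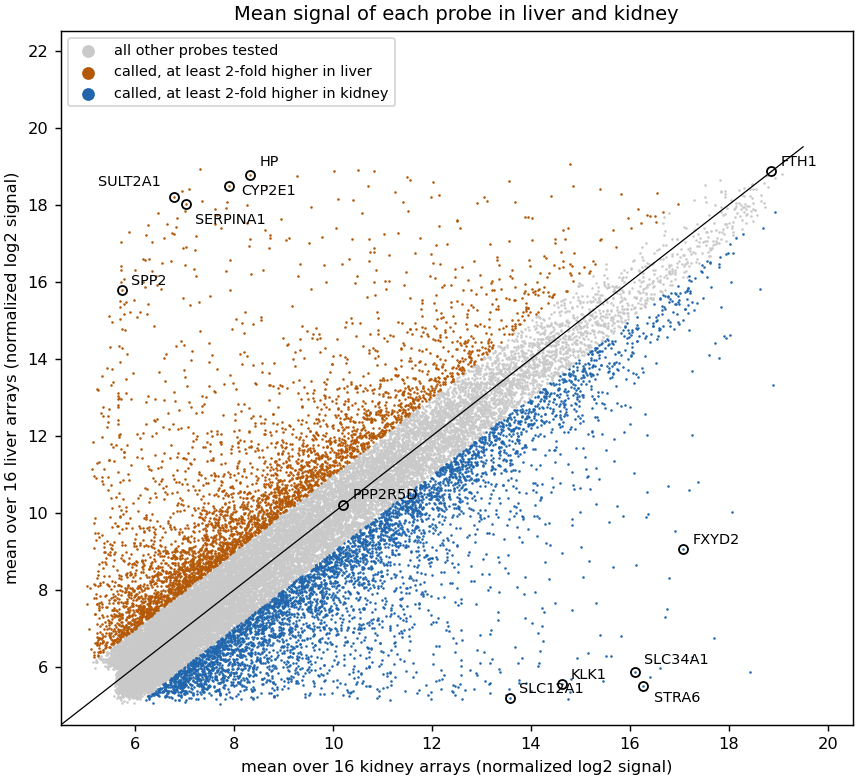
Mean log2 signal of every tested probe in liver and in kidney, with some named genes of the largest and the smallest differences marked. Organ, slide and scan day cannot be told apart in this plot.

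The named genes with the largest excess in liver encode plasma proteins and enzymes of hepatocytes. SULT2A1, which sulfates steroids and bile acids, ran at 17.46, 18.30 and 18.60 (lowest, median and highest log2 signal over the arrays) in liver and at 5.56, 6.34 and 10.09 in kidney. The fitted excess in liver was 11.40 log2 (adjusted p 3.01e-17, all 15 measured pigs), and the organs did not overlap. Its probe rose well above background on 13 of 16 kidney arrays. In such cases only a lower limit is given, unless a value is named as fitted. The limit compares the brighter organ's mean with the higher of the probe's own signal and the lowest signal well above background on each array of the other organ. The means in a limit use every array with a value, while fits use complete pairs, so a limit can exceed the fit. Array counts in parentheses below are those on which the dimmer organ rose well above background.

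SERPINA1, an inhibitor of neutrophil elastase, stood at 17.77, 18.06 and 18.31 in liver and at 5.49, 6.67 and 10.26 in kidney. The excess was at least 1991-fold (adjusted p 2.22e-18, all 16 pigs, well above background on 14 kidney arrays) with no overlap. In all 16 pigs an exact sign-flip permutation test gave 3.05e-05, the smallest 2-sided p possible with 16 pairs. APCS, the serum amyloid P component, was at least 1369-fold higher in liver (adjusted p 3.71e-20, all 15 measured pigs, 11 kidney arrays), again without overlap. HP, which binds free hemoglobin, was well above background on all arrays of both organs and ran at 18.66, 18.74 and 18.99 in liver and 6.14, 7.76 and 12.62 in kidney. That made a 1347-fold difference (10.40 log2, adjusted p 1.91e-14, all 15 measured pigs), and the ranges were far apart. ITIH2, a hyaluronan-binding protease inhibitor chain, was 1065-fold higher in liver (adjusted p 1.64e-17, all 15 measured pigs). VTN, the adhesion protein vitronectin, followed at 1047-fold (adjusted p 9.35e-19, all 15 measured pigs), and neither gene overlapped between the organs. Other ITIH2 probes were at least 133-fold and 131-fold higher (3 and 11 kidney arrays). The secreted phosphoprotein SPP2 was at least 926-fold higher (adjusted p 2.41e-21, all 16 pigs), with kidney signal well above background on 6 arrays.

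Counts and medians of gene lists use the fitted differences, also for genes given here only with a lower limit or no fold. They cover only listed genes with a named probe present. These were 4 of 32 for bile acids, 11 of 56 for urea and amino acid breakdown and 4 of 14 for the sodium pump. Of 32 plasma protein genes present, 31 were at least 2-fold higher in liver and none in kidney, with a median of 7.80 log2. Every liver array lay above every kidney array for 29 of them. Over all 1645 named genes this held for 308, and the reverse for 221. HPX, which carries heme, was 337-fold higher (adjusted p 4.73e-20, all 16 pigs). Prothrombin, F2, was 20.6-fold higher (adjusted p 1.14e-17, all 15 measured pigs), and a second F2 probe 6.52 log2 higher. TTR, the carrier of thyroid hormone and retinol-binding protein, was 32.2-fold higher (adjusted p 7.81e-12, all 15 measured pigs), with kidney signal ranging from 11.38 to 15.11. The selenium carrier SELENOP was the only member under 2-fold, at 0.88 log2 (adjusted p 3.67e-06, 14 of 15 pigs) with overlapping ranges, and a second SELENOP probe stood at 1.05 log2.

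ALB, the main plasma protein, behaved unevenly in kidney. Liver arrays lay between 18.72 and 18.99, while kidney arrays ran from 5.72 to 15.81 with a median of 10.20. The difference was at least 452-fold (adjusted p 2.12e-09, all 14 measured pigs, well above background on 15 kidney arrays), and within pigs it spanned 3.00 to 13.17 log2. A second ALB probe was at least 2998-fold higher in liver (13 kidney arrays). Summed signal of 9 hepatocyte markers, of which TTR was brightest in kidney, came on kidney arrays to between 0.567% and 4.47% of the liver median. The 5 kidney epithelium markers summed on liver arrays to between 0.183% and 0.306% of the kidney median, but none of them was well above background on all liver arrays, so this share is close to the floor of the measurement. Without the 3 pigs with the brightest kidney ALB, 23162 probes were called and 9140 at 2-fold or more. Whether the hepatocyte transcripts in these kidney pieces were made there was not tested.

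Complement followed the plasma proteins. In this list 18 of 21 genes were at least 2-fold higher in liver and 1 in kidney, with a median of 6.25 log2. C8A, a chain of the membrane attack complex, ran at 16.66, 17.02 and 17.24 in liver and 5.09, 5.96 and 9.44 in kidney. Its excess was at least 1489-fold (adjusted p 4.61e-18, all 16 pigs, 10 kidney arrays) without overlap. C8B from the same complex was at least 616-fold higher (adjusted p 7.60e-23, all 16 pigs, 10 kidney arrays). C3, the hub of the cascade, was 269-fold higher (adjusted p 3.38e-20, all 14 measured pigs), and CFB of the alternative pathway 270-fold (adjusted p 1.55e-16, all 15 measured pigs). The exception was CD59, which shields host cells from complement and was at least 1.97-fold higher in kidney (adjusted p 1.40e-06, all 16 pigs, 11 liver arrays) with overlapping ranges. For CD55, another shield, no difference was called (-0.16 log2, adjusted p 0.230).

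Genes for lipoproteins and lipid export showed the same side, with 11 of 13 at least 2-fold higher in liver and a median of 5.03 log2. APOA4, an apolipoprotein of triglyceride-rich particles, was 822-fold higher (adjusted p 4.91e-15, all 14 measured pigs). APOE, a ligand of lipoprotein receptors, was at least 576-fold higher (adjusted p 4.30e-23, all 15 measured pigs, 14 kidney arrays). FABP1, the fatty acid carrier of hepatocytes, was at least 648-fold higher (adjusted p 4.41e-15, all 14 measured pigs, 13 kidney arrays). LPL, which frees fatty acids from circulating lipoproteins, took the other side at 7.31, 8.51 and 9.18 in kidney. It was at least 6.04-fold higher there (adjusted p 2.29e-15, all 16 pigs) and well above background on no liver array. LPL is also an adipocyte marker, and of 10 such markers 4 were at least 2-fold higher in kidney and 1 in liver.

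**Figure D2:**
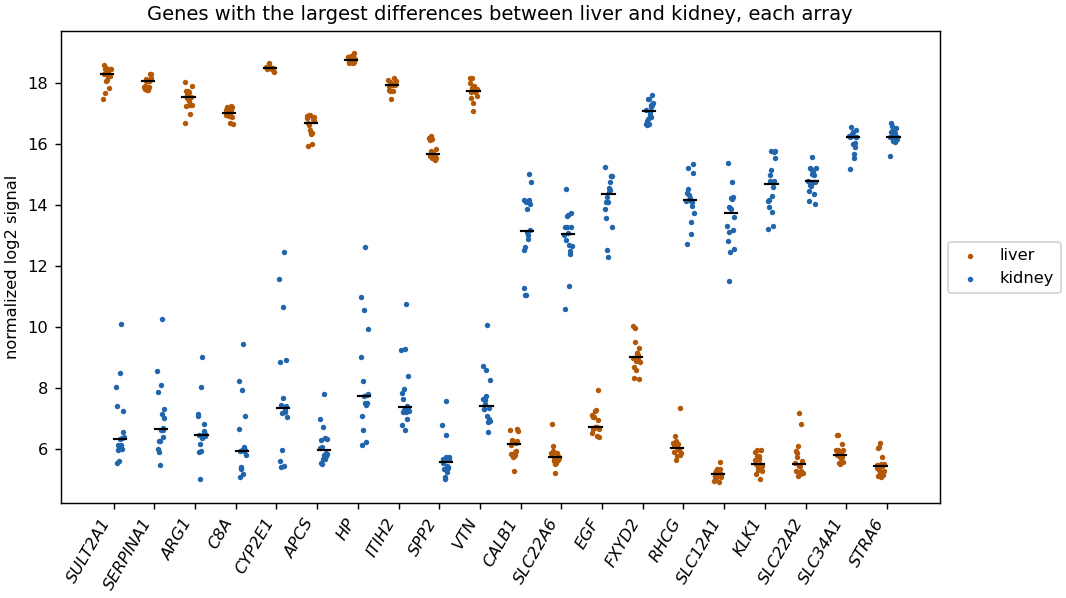
Log2 signal on each liver and kidney array for the named genes with the largest difference in either direction. Black bars mark the medians.

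Among the named genes, nitrogen disposal was divided by step. ARG1, which releases urea from arginine, ran at 16.69, 17.54 and 18.05 in liver and 5.01, 6.46 and 9.04 in kidney. The ranges did not meet, and the excess was at least 1747-fold (adjusted p 1.30e-18, all 15 measured pigs, 14 kidney arrays). OTC, which makes citrulline, was at least 193-fold higher in liver (adjusted p 5.99e-23, all 16 pigs, 4 kidney arrays). NAGS, which supplies the activator of the cycle's first enzyme, was 47.0-fold higher (adjusted p 9.86e-18, all 16 pigs). Enzymes that oxidize D-amino acids lay on the kidney side. DAO was 4.72-fold higher in kidney (adjusted p 8.46e-14, all 16 pigs), though a second DAO probe was not called, and DDO 5.97-fold (adjusted p 1.58e-11, all 16 pigs). Over the 11 genes of urea formation and amino acid breakdown, 5 were at least 2-fold higher in liver and 2 in kidney, with a median of 0.74 log2.

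Methyl group metabolism, the target of the F0 diet, also differed between the organs. GNMT, which disposes of surplus S-adenosylmethionine, ran at 12.92, 14.10 and 14.85 in liver and 7.69, 8.26 and 9.27 in kidney. It was 56.1-fold higher in liver (5.81 log2, adjusted p 3.99e-18, all 16 pigs) without overlap. CTH, which turns cystathionine into cysteine, was 6.66-fold higher (adjusted p 7.86e-09, all 15 measured pigs). The folate receptor FOLR1 was 6.14-fold higher in liver on the probe read here (adjusted p 5.11e-13, all 16 pigs), and its 3 other probes gave the same call. PEMT, which methylates phosphatidylethanolamine, was 2.69-fold higher (adjusted p 1.13e-09, all 16 pigs). The de novo DNA methyltransferase DNMT3A was 2.46-fold higher in kidney (adjusted p 4.46e-08, all 16 pigs) with overlapping ranges, and 1 of its 2 other probes stayed under 2-fold. Neither the maintenance methyltransferase DNMT1 (-0.02 log2, adjusted p 0.910) nor AHCY, which clears S-adenosylhomocysteine (0.20 log2, adjusted p 0.0766), was called, though 1 of 4 DNMT1 probes stood 1.01 log2 higher in liver. Of 9 genes, 4 were at least 2-fold higher in liver and 1 in kidney, with a median of 0.74 log2.

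Of 4 bile acid genes, 3 were called higher in liver and 1 in kidney, and only HSD17B4 and AKR1C1 were well above background on all arrays of both organs. CYP7A1, the first enzyme of the classic pathway, ran at 5.67, 7.59 and 9.74 in liver and 5.01, 5.23 and 5.41 in kidney. It was well above background on 13 liver arrays and no kidney array and higher in liver in all 16 pigs (adjusted p 1.11e-06). No fold is given for it, because neither organ was measured throughout. CYP8B1, which sets the share of cholic acid, was likewise higher in liver in all 16 pigs (adjusted p 5.83e-06), on 14 liver and 7 kidney arrays. HSD17B4, which shortens the side chain in peroxisomes, was 2.23-fold higher in liver (adjusted p 0.000177, 14 of 16 pigs) with overlapping ranges. AKR1C1 was 3.57-fold higher in kidney (adjusted p 1.25e-12, all 16 pigs) on 1 probe, while its 2 other probes stood 6.08 and 6.23 log2 higher in liver.

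Enzymes for foreign compounds were mostly liver transcripts. In phase 1, 15 of 20 genes were at least 2-fold higher in liver and 1 in kidney (median 1.88 log2), and in phase 2 it was 5 and 0 of 7 (median 1.18). The phase 1 list also holds the sterol enzymes CYP51 and CYP39A1. CYP2E1, which oxidizes ethanol and small solvents, ran at 18.35, 18.49 and 18.66 in liver and 5.43, 7.34 and 12.45 in kidney. Its excess was at least 1480-fold (adjusted p 2.40e-13, all 15 measured pigs, 14 kidney arrays) without overlap, while a second CYP2E1 probe was at least 71.5-fold higher (3 kidney arrays). The drug oxidase CYP3A29 was 76.4-fold higher (adjusted p 1.06e-14, all 14 measured pigs). CYP3A46 was at least 51.3-fold higher (adjusted p 1.72e-16, all 16 pigs, 15 kidney arrays). GSTA1, which conjugates glutathione, was 6.23 log2 higher (adjusted p 9.19e-14, all 16 pigs).

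The monoamine oxidases parted. MAOA, which prefers serotonin and noradrenaline, ran at 12.54, 12.97 and 13.63 in liver and 14.27, 15.11 and 15.51 in kidney. It was 4.14-fold higher in kidney (adjusted p 2.40e-13, all 16 pigs), and a second probe differed by -1.31 log2. MAOB was 3.93-fold higher in liver (adjusted p 1.22e-12, all 16 pigs), and neither gene overlapped between organs. The 11-beta-hydroxysteroid dehydrogenases parted in the same manner. HSD11B1, which regenerates cortisol, was 62.5-fold higher in liver (adjusted p 4.81e-20, all 15 measured pigs), and at least 18.4-fold on a second probe (15 kidney arrays). HSD11B2, which inactivates it and so protects the mineralocorticoid receptor, was at least 25.4-fold higher in kidney (adjusted p 7.72e-17, all 16 pigs, 11 liver arrays).

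For carbohydrate, 4 of 10 genes were at least 2-fold higher in liver and 1 in kidney, with a median of 0.12 log2 (0.41 over all 15 probes). PFKFB1, the regulator of glycolysis against gluconeogenesis, ran at 11.47, 12.05 and 12.73 in liver and was well above background on no kidney array. Liver exceeded kidney at least 83.9-fold (adjusted p 3.07e-21, all 16 pigs). UGP2, which makes UDP-glucose for glycogen, was 12.9-fold higher (adjusted p 2.64e-16, all 16 pigs). The glucose transporter SLC2A2 was 9.38-fold higher (adjusted p 1.81e-13, all 16 pigs). The muscle-type phosphofructokinase PFKM was 3.65-fold higher in kidney (adjusted p 1.09e-10, all 16 pigs). FBP1, an enzyme of gluconeogenesis, which both organs carry out, ran at 17.34, 17.78 and 18.10 in liver and 17.38, 17.98 and 18.15 in kidney and was not called (-0.17 log2, adjusted p 0.102).

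Most genes of lipid synthesis were higher in liver. SREBF1, the transcription factor of lipogenesis, was 30.9-fold higher in liver (adjusted p 2.83e-14, all 16 pigs). In the cholesterol pathway SQLE was 24.6-fold higher (adjusted p 1.39e-14, all 16 pigs), and CYP51 11.4-fold (adjusted p 3.00e-16, all 16 pigs). The desaturase SCD was 14.7-fold higher (adjusted p 4.45e-13, all 16 pigs). A second SREBF1 probe was 2.58 log2 higher, a second SQLE probe at least 7.19-fold (15 kidney arrays) and another SCD probe at least 4.64-fold (9 kidney arrays). ACLY, which supplies cytosolic acetyl-CoA, was not called (0.20 log2, adjusted p 0.0777). Of 10 genes for fatty acid and sterol synthesis, 8 were at least 2-fold higher in liver and none in kidney (median 3.27 log2).

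OXCT1, which lets tissues burn ketone bodies, ran at 8.30, 8.89 and 9.32 in liver and 12.49, 13.41 and 13.87 in kidney. It was 22.2-fold higher in kidney (adjusted p 1.91e-20, all 16 pigs) without overlap. FABP5, a carrier of long-chain fatty acids, was 13.9-fold higher in kidney (adjusted p 5.94e-12, all 16 pigs), and the related FABP4, another of the adipocyte markers, 6.52-fold (adjusted p 1.03e-11, all 16 pigs). Of 20 genes for fatty acid oxidation and ketones, 5 were at least 2-fold higher in liver and 6 in kidney. Their median of -0.20 log2 turned to 0.26 with median signal and 0.36 with processed signal scaled to the 75th percentile. Over all 38 probes of these genes the median was 0.12, with 14 at 2-fold or more in liver and 8 in kidney.

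On the kidney side STRA6, a receptor for retinol-binding protein, ran at 5.09, 5.46 and 6.20 in liver and 15.61, 16.23 and 16.69 in kidney. It was at least 1355-fold higher in kidney (adjusted p 5.51e-24, all 16 pigs, well above background on 1 liver array) without overlap. SLC34A1, which recovers phosphate in the proximal tubule, ran at 5.50, 5.80 and 6.46 in liver and 15.18, 16.22 and 16.56 in kidney. The excess was at least 1132-fold (adjusted p 6.17e-24, all 16 pigs, 2 liver arrays), and no array of 1 organ reached the other. SLC22A2, which takes up organic cations from blood, was at least 447-fold higher (adjusted p 3.63e-21, all 16 pigs, 3 liver arrays).

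Other carriers of the proximal tubule lay on the same side. SLC22A6, the basolateral carrier of organic anions, was at least 127-fold higher in kidney (adjusted p 8.33e-17, all 16 pigs, 2 liver arrays), but a second SLC22A6 probe, well above background on all arrays, differed by only -2.03 log2. SLC22A8, from the same group, was at least 38.4-fold higher (adjusted p 3.80e-17, all 16 pigs, no liver array). The water channel AQP1 was at least 20.1-fold higher (adjusted p 2.49e-15, all 16 pigs, 8 liver arrays). SLC7A9, which recovers cystine, was 18.9-fold higher (adjusted p 1.81e-15, all 16 pigs). SLC22A7 was the exception, 16.9-fold higher in liver (adjusted p 8.09e-13, all 16 pigs). Of 22 proximal tubule genes, 16 were at least 2-fold higher in kidney and 1 in liver, with a median of -2.82 log2. Over all 46 solute carrier genes, 21 were at least 2-fold higher in kidney and 6 in liver (median -0.87 log2).

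Further along the nephron, 10 of 16 genes were at least 2-fold higher in kidney and 2 in liver (median -2.63 log2, and -1.23 over all 21 probes). KLK1, the kallikrein of the connecting tubule, ran at 13.22, 14.69 and 15.78 in kidney and was well above background on no liver array. In kidney it was at least 455-fold higher (adjusted p 6.45e-19, all 16 pigs). SLC12A1, the salt carrier of the thick ascending limb, ran at 11.53, 13.74 and 15.39 in kidney, also with no liver array above background. The difference was at least 223-fold (adjusted p 6.15e-18, all 16 pigs). RHCG, which passes ammonia into the urine, was at least 263-fold higher (adjusted p 3.09e-20, all 16 pigs, 6 liver arrays), while for a second RHCG probe the limit was 1.80-fold (1 liver array). EGF, which the distal tubule secretes, was at least 153-fold higher (adjusted p 4.67e-17, all 16 pigs, 15 liver arrays).

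Most genes of the sodium pump, which drives this transport, were also higher in kidney. Of 4 genes for its subunits and FXYD regulators, 3 were at least 2-fold higher in kidney (median -3.30 log2). The other was called higher in liver, under 2-fold (0.57 log2). FXYD2, a regulatory subunit of the pump, ran at 8.30, 9.03 and 10.02 in liver and 16.63, 17.08 and 17.61 in kidney. That made a 260-fold difference (adjusted p 3.63e-21, all 16 pigs) without overlap. The beta subunit ATP1B1 was 19.9-fold higher (adjusted p 7.01e-20, all 16 pigs).

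Of 12 genes for brush border enzymes and renal oxidases, with peroxisomal DAO and DDO and lysosomal CTSH among them, 11 were at least 2-fold higher in kidney (median -2.56 log2). DPEP1, which splits dipeptides, was at least 108-fold higher (adjusted p 5.76e-19, all 16 pigs, 6 liver arrays). ENPEP, which trims angiotensin II, was 86.2-fold higher (adjusted p 1.23e-17, all 16 pigs), and XPNPEP2, an aminopeptidase that cleaves bradykinin, 46.4-fold (adjusted p 1.70e-18, all 16 pigs).

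Most genes of calcium handling and vitamin D were higher in kidney. CALB1, which ferries calcium through distal tubule cells, ran at 5.29, 6.17 and 6.65 in liver and 11.06, 13.15 and 15.02 in kidney. It was at least 132-fold higher (adjusted p 8.62e-15, all 16 pigs, 9 liver arrays) without overlap. CYP27B1, which makes active vitamin D, was at least 4.61-fold higher (adjusted p 4.31e-12, all 16 pigs, no liver array). CYP24A1, which degrades it, ran at 8.38, 9.48 and 10.24 in liver and 11.34, 12.88 and 13.87 in kidney, 3.33 log2 higher there (adjusted p 5.79e-12, all 16 pigs). The parathyroid hormone receptor PTH1R was 1.93 log2 higher in kidney (adjusted p 1.96e-12, all 15 measured pigs), while a second probe was not called. Of 8 genes, 5 were at least 2-fold higher in kidney and 1 in liver (median -2.15 log2), and of all 12 probes also 5 and 1 (median -0.75).

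EPO, the hormone of red cell formation, ran at 5.37, 5.81 and 6.69 in liver and 7.24, 8.56 and 11.69 in kidney. Kidney exceeded liver at least 6.57-fold (adjusted p 7.77e-10, all 16 pigs, 3 liver arrays) without overlap. ACE, which forms angiotensin II, was at least 4.61-fold higher (adjusted p 4.44e-14, all 16 pigs, 1 liver array). WT1, a transcription factor of podocytes, was at least 4.17-fold higher (adjusted p 3.86e-12, all 16 pigs, 3 liver arrays). The endothelial cadherin CDH5 was 3.55-fold higher in liver (adjusted p 1.10e-09, all 16 pigs). PECAM1, also of endothelium, was 3.67-fold higher in kidney (adjusted p 4.57e-07, 15 of 16 pigs) with overlap, while a second PECAM1 probe stood 0.92 log2 higher in liver. Of 11 glomerular, vascular and hormone genes, 6 were at least 2-fold higher in kidney and 1 in liver (median -1.45 log2). Over all 16 probes these were 7 and 2, with a median of -0.39.

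**Figure D3:**
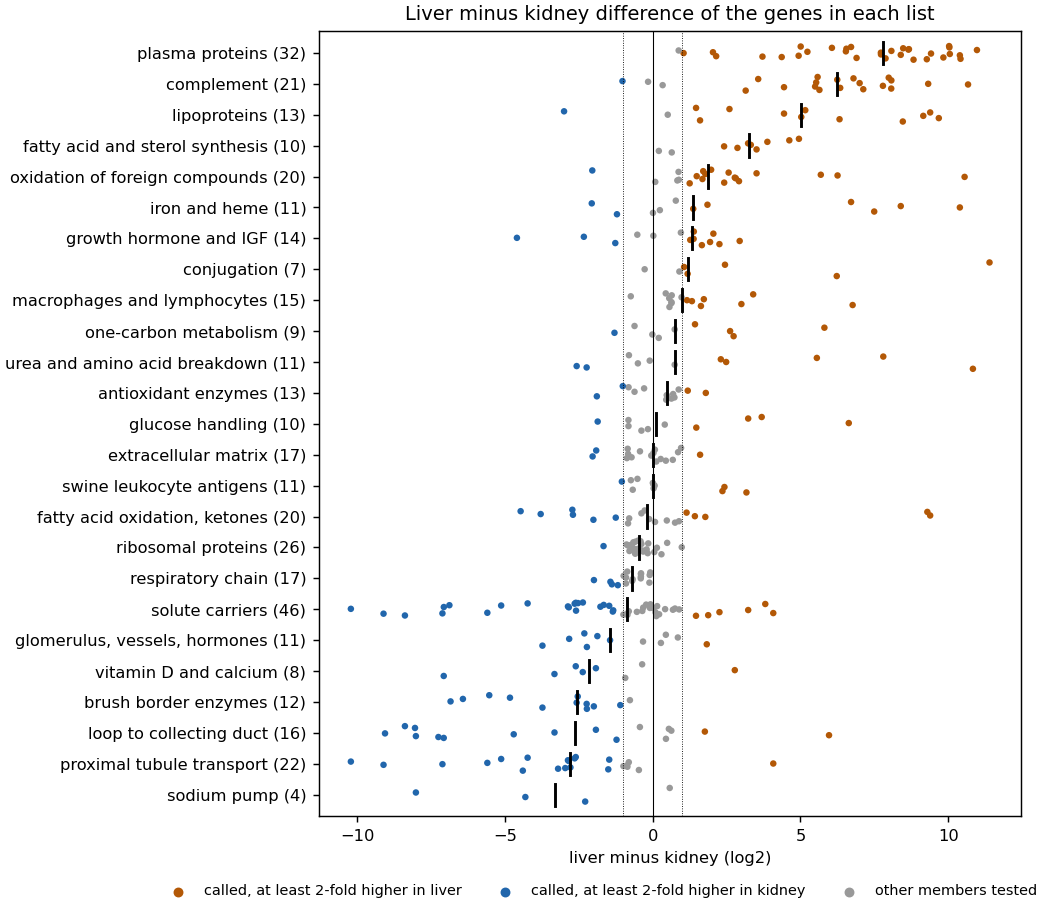
Liver minus kidney log2 difference of each gene in the lists, with the median of each list. Among the lists plotted, the medians for ribosomal proteins, fatty acid oxidation and extracellular matrix change sign with the scaling.

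The growth hormone axis was split between the organs. IGFALS, which holds IGF1 in the circulation, was 7.68-fold higher in liver (adjusted p 3.86e-14, all 16 pigs). IGF1 was 4.78-fold higher (adjusted p 1.16e-11, all 16 pigs) with overlapping ranges, and the growth hormone receptor GHR 3.16-fold (adjusted p 1.65e-12, all 16 pigs). In kidney the binding protein IGFBP5 was 24.3-fold higher (adjusted p 3.06e-15, all 16 pigs). The receptor IGF1R was 2.41-fold higher in kidney (adjusted p 5.59e-09, all 16 pigs). Of 14 genes, 8 were at least 2-fold higher in liver and 3 in kidney (median 1.33 log2).

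Transcription factors of the organs followed their tissue for some genes only. PROX1, needed for hepatocyte fate, was 10.4-fold higher in liver (adjusted p 7.38e-13, all 16 pigs). ONECUT1 was at least 6.65-fold higher in liver (adjusted p 1.21e-14, all 16 pigs, no kidney array). GATA3, a factor of the collecting duct, was 17.5-fold higher in kidney (adjusted p 4.70e-16, all 16 pigs). HNF4A, active in hepatocytes and proximal tubule, was not called (0.30 log2, adjusted p 0.0971). Of 19 genes, 8 were at least 2-fold higher in liver and 4 in kidney (median 0.53 log2, and 0.93 over all 22 probes).

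HAMP, the hormone that limits iron release, ran at 11.89, 14.42 and 16.37 in liver and 6.30, 6.86 and 7.22 in kidney. It was 181-fold higher in liver (7.50 log2, adjusted p 6.21e-15, all 16 pigs) without overlap. Of 11 iron and heme genes, 6 were at least 2-fold higher in liver and 2 in kidney (median 1.37 log2, and 0.36 over all 21 probes). The ferritin heavy chain FTH1 differed by 0.01 log2 (adjusted p 0.929) but by 0.77 and 0.86 when median or processed signal was scaled to the 75th percentile, and 7 of its 9 other probes were called. Among 13 antioxidant genes, 2 were at least 2-fold higher in each organ (median 0.47 log2, and 0.21 over all 21 probes). GPX4, which reduces lipid peroxides, was 3.72-fold higher in kidney (adjusted p 5.45e-13, all 16 pigs). NQO1, a quinone reductase, was 3.47-fold higher in liver (adjusted p 1.62e-09, all 16 pigs).

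Mitochondrial genes leaned to kidney by modest amounts. COX7A1, a subunit of cytochrome c oxidase, was 3.98-fold higher in kidney (adjusted p 1.89e-13, all 16 pigs). COX6B was 2.70-fold higher (adjusted p 2.93e-12, all 16 pigs), and the ATP synthase subunit ATP5I 2.61-fold (adjusted p 1.25e-10, all 16 pigs). Of 17 respiratory chain genes, 4 were at least 2-fold higher in kidney, none in liver. Their median of -0.70 log2 shrank to -0.26 with median signal and -0.17 with processed signal scaled to the 75th percentile. For 26 ribosomal protein genes the median of -0.47 log2 turned to 0.22 with median signal and 0.28 with processed signal scaled to the 75th percentile. Read from 1 probe per gene, only RPS16 reached 2-fold there, 3.18-fold higher in kidney (adjusted p 1.14e-06, 15 of 16 pigs) with overlap. Over all 49 probes of these genes, 1 reached 2-fold in liver and 2 in kidney.

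Among 15 macrophage and lymphocyte genes, 7 were at least 2-fold higher in liver and none in kidney (median 0.97 log2). Their summed signal, with CD14 brightest in liver and AIF1 in kidney, had a median of 71789 in liver and 17065 in kidney. CD14, a receptor for endotoxin, ran at 14.60, 14.91 and 15.20 in liver and 7.83, 8.15 and 8.90 in kidney. It was 109-fold higher in liver (adjusted p 2.20e-22, all 16 pigs) without overlap. CD163, which clears haptoglobin-hemoglobin, was 8.00-fold higher (adjusted p 4.24e-14, all 16 pigs). SIGLEC1 was at least 9.16-fold higher (adjusted p 1.35e-18, all 16 pigs, 2 kidney arrays). The class I molecule SLA-2 was 3.17 log2 higher in liver (adjusted p 3.46e-13, all 16 pigs), while the class II chain SLA-DQB1 was 2.07-fold higher in kidney (adjusted p 2.61e-06, all 15 measured pigs) with overlap. Of 11 such SLA genes, 3 reached 2-fold in liver and 1 in kidney (median 0.02 log2). More cells of a type and more RNA per cell cannot be told apart.

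Few matrix genes reached 2-fold. The surface protease MMP14 was 3.03-fold higher in liver (adjusted p 3.97e-10, all 16 pigs), and the proteoglycan DCN 4.11-fold higher in kidney (adjusted p 1.76e-09, all 16 pigs), with 1 of 3 DCN probes not called. Of 17 collagen and matrix genes, 1 reached 2-fold in liver and 2 in kidney, and their median of 0.02 log2 turned to -0.03 with processed signal scaled to the 75th percentile (0.09 with median signal) and to -0.05 over all 23 probes.

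Markers set the organ labels apart on every array. All 9 hepatocyte markers were at least 2-fold higher in liver (median 7.50 log2), and all 5 kidney epithelium markers, SLC34A1 brightest there, in kidney (median -7.12). Their summed kidney signal had a median of 112678, against 272 in liver. The 3 markers shared with bile duct cells were all higher in kidney, with median sums of 2920.3 in liver and 38231 in kidney. EPCAM, the brightest, was 4.25 log2 higher in kidney (adjusted p 4.90e-16, all 16 pigs).

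Markers of other tissues went either way. Of 7 skeletal muscle markers (median sums 624 in liver and 912 in kidney), CKM, the brightest in kidney, alone reached 2-fold. It was at least 7.44-fold higher in kidney (adjusted p 1.50e-11, all 16 pigs, 2 liver arrays). Of 10 adipocyte markers, PLIN2 brightest in liver (sum 5940.4) and LIPE in kidney (sum 12175), 1 reached 2-fold in liver and 4 in kidney. The medians of both lists, -0.07 and -0.03 log2, turned to 0.37 and 0.26 with median signal scaled to the 75th percentile (-0.04 and 0.01 with processed signal), and were 0.14 and 0.00 over all probes of the genes. Read from 1 probe per gene, no smooth muscle marker of 4, DES brightest (18219 and 21728), reached 2-fold (median 0.26 log2). Over all 8 probes the median was 0.62, with a MYLK probe at 2-fold in liver and a DES probe in kidney. Of 4 adrenal markers (1928 and 332), HSD3B1, the brightest in liver, alone reached 2-fold, 4.26 log2 higher in liver (adjusted p 9.69e-15, all 16 pigs). PNMT was under 2-fold (-0.51 log2, turning to 0.15 with median signal scaled to the 75th percentile), CYP11A1 and CYP21A2 were not called, and the median of the 4 was 0.09 log2. Of 4 pancreas markers, CELA2A brightest (1815 and 789), CPA1 and CPB1 were at least 2-fold higher in liver. The 1 erythroid marker present, HBE1 (94.1 and 64.6), had a fitted difference of 0.51 log2, but of 1.04 and 1.18 with median or processed signal scaled to the 75th percentile. HBE1 was not well above background on all arrays of both organs, so these sizes are not exact.

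Among 11 immediate early and stress genes, 2 were at least 2-fold higher in liver and 3 in kidney (median -0.30 log2), but over all 17 probes, with 3 and 4 at 2-fold, the median turned to 0.22. MYC was 4.61-fold higher in liver (adjusted p 9.42e-09, all 16 pigs). The vasodilator peptide ADM was 4.28-fold higher in kidney (adjusted p 6.23e-13, all 16 pigs).

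Some transcripts were detected in a single organ. Well above background on all 16 arrays of 1 organ and on none of the other were 38 probes in liver and 310 in kidney. Named genes among those of liver were TDH, PFKFB1, DMBT1, ONECUT1 and 1 probe of HSD3B1. In kidney they included KLK1, SLC12A1, SLC22A8, the melanosome protein OCA2, the growth factor FGF9, the chloride exchanger CLCN5, LPL and CYP27B1. When at least 14 arrays of 1 organ and at most 2 of the other were asked for, the numbers were 140 and 1193. Kidney arrays also had more spots well above background, a median of 32138.5 against 27647.5 in liver, and how far this raised the kidney count was not tested.

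A few kidney transcripts varied widely between pigs, as ALB did above. SAL1, a lipocalin that binds pheromones in saliva, ran at 5.83, 10.58 and 16.83 in kidney and 5.36, 6.24 and 7.99 in liver. It was at least 21.5-fold higher in kidney (adjusted p 8.88e-05, 14 of 16 pigs, 9 liver arrays) with overlap. UCP3, a mitochondrial carrier, ran at 6.73, 11.20 and 13.55 in kidney and 5.78, 6.66 and 11.18 in liver, at least 6.54-fold higher (adjusted p 0.00372, 11 of 16 pigs, 13 liver arrays). ABO, the blood group glycosyltransferase, fell into separate sets in kidney, 7.70 to 8.80 in 5 pigs and 11.89 to 14.30 in 11. In liver it stayed between 7.52 and 8.69, and kidney was 14.9-fold higher (adjusted p 8.87e-07, all 16 pigs) with overlap.

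**Figure D4:**
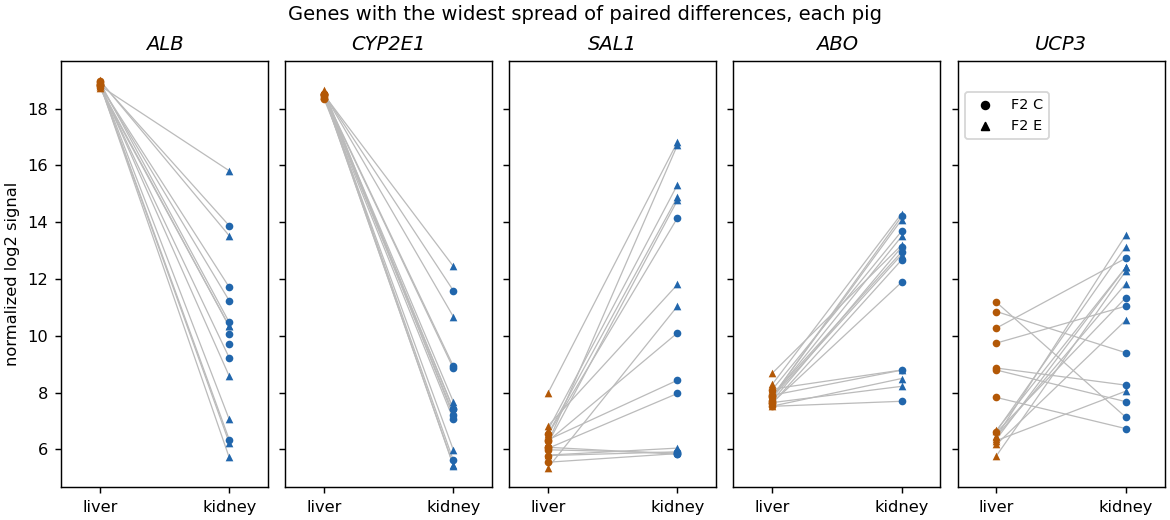
Log2 signal per pig in liver and kidney for the named genes whose paired difference varied most. Values near 5 to 6 lie close to background.

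No probe was called for a difference between organs that depended on diet line or sex. The limma interaction with line gave 0 of 32805 probes at an adjusted p under 0.05 and 905 at an unadjusted p under 0.05. For sex these were 0 and 1326, and with pig as random block instead of fixed 5 probes were called for line and 2 for sex. GALP, the galanin-like peptide, had the smallest p among named genes for line (-1.88 log2, unadjusted p 3.95e-06, adjusted p 0.0647, 8 pigs in each line). Of the genes named above for wide spread, UCP3 had a fitted difference between organs of -0.02 log2 in F2 C and -5.42 in F2 E (unadjusted p 3.11e-05, adjusted p 0.218). For SAL1 the fitted values were -1.94 and -6.97 (unadjusted p 0.00107, adjusted p 1.00). Neither gene was well above background on all liver arrays, so these sizes are not exact.

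Each slide held arrays of 1 organ and kidneys were scanned on other days than livers, so organ, slide and scan cannot be told apart. All 4 kidney slides and 2 of 4 liver slides held a single diet line, so line and slide cannot be told apart in kidney either. Liver slide 1 held only barrows and liver slide 2 only females, so sex and slide cannot be told apart on these arrays. With slide as random block beside pig, 22114 probes were called and 8927 at 2-fold or more, and with no block for pig 23924 and 8927.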

How the data were processed

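Single-color Agilent porcine arrays measured liver, kidney and GM of 16 F2 pigs, and the 32 arrays of liver and kidney were used. The deposited raw files hold the scanner's linear intensity per spot from Agilent Feature Extraction (version 10.5.1.1 in the file headers), with flags and the authors' processed signal. The 3 unused tables hold the authors' log2 intensity per organ with the ratio, p value and FDR of the diet lines.

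The log2 median signal of 43603 probes was quantile-normalized over the 32 arrays, with non-uniform and population outlier spots left out (974 in liver, 309 in kidney, 0 saturated) and the 50 probes with several spots averaged. To count as present a probe needed a linear signal over 25 together with a call well above background in 50% or more of liver or of kidney arrays, and 2 complete pairs, which 10798 probes lacked. Median signal per array ran at 88, 109.75 and 167 (lowest, median, highest) in liver and 48, 147.5 and 240.5 in kidney over a background of 20, 24 and 37.5 and of 19, 21 and 24. Probes well above background on all 16 arrays numbered 21968 in liver and 23449 in kidney, with outlier spots not counted. The choice between a fold and a lower limit counted those spots too, and so treated 20665 tested probes as measured in both organs.

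Differences were fitted with limma 3.58.1 in R 4.3.3 with pig as block, and p values were adjusted after Benjamini and Hochberg at 0.05. A call of 2-fold means 1 log2 or more. An exact sign-flip permutation test over 65536 sign patterns was run for named genes. Line and sex were tested as interactions. The fit was also run on simulated data, and no result here rests on that run. Further software was data.table (version 1.17.8), Python 3.11.15, numpy 2.4.6 and pandas 2.3.3, and plots matplotlib 3.10.9.

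Pairs came from the pig number in the title, since the running number in the labels differed between organs for 5 pigs. After organ means were removed, liver and kidney of the same pig correlated at -0.274, 0.213 and 0.349 (lowest, median, highest) and those of different pigs at a median of -0.0105. For 11 of 16 pigs the best match was the own organ.

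Genes were named by RefSeq accession of the probe (2590 probes, 1839 symbols, 5.94% of all), and a gene with several probes was read from the probe with the highest mean signal. Of 470 named genes with several probes, 247 had probes with different calls. The other 41013 probes stayed unnamed, as no probe sequences were at hand. Genes and lists to name were chosen with earlier results of these data known. Wrong synonyms in the lists (COX2, CYTB and ELANE) were corrected after list values had been seen, and the synonym COX1 was also left out. Alternatives were other blocks, scalings, filters, an unpaired t test, normexp background correction, subsets by line and sex, and left-out pigs.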

Additional observations from a re-analysis of the deposited data

Results flagged for a closer look

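A difference between barrows and females flagged 1 unnamed probe, A_72_P338498. Its liver minus kidney difference was 1.095 log2 larger in barrows, with means of 0.474 in barrows and -0.621 in females (unadjusted limma p 8.05e-06, adjusted p 0.264), so it did not pass the threshold.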

How the results depend on the processing

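The number of probes called between liver and kidney, 24124, ran from 22114 (slide as random block beside pig) to 26587 (no presence filter) over most alternatives, and at 2-fold or more, over the same probes or more, from 7184 (normexp on the median signal) to 12861 (processed signal scaled to the 75th percentile). With only the 20665 probes treated as measured in both organs, 16034 were called and 6325 at 2-fold or more, since fewer were tested. Probes counted as well above background on all 32 arrays numbered 20100. Subsets gave 22116 (F2 C), 18392 (F2 E), 21263 (barrows) and 19384 (females), all from fewer pigs. Leaving out each pig in turn gave 23576 to 24232 and, at 2-fold or more, 8808 to 9151. Of 178 named genes followed, 154 kept direction and side of the threshold throughout and 21 missed the threshold in some fit, among them UCP3 in F2 C.

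Probes whose difference depended on line, 0, became 5 with pig as a random block and 1 with outlier spots left out before normalization, and 0 to 2 with a pig left out. For sex, 0 became 2 with a random block, 1 with processed signal scaled to the 75th percentile and 2 with normexp, and 0 to 2 with a pig left out. Probes detected in liver alone, 38, became 140 and those in kidney alone, 310, became 1193 when 14 arrays of 1 organ and at most 2 of the other were asked for.

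With median signal scaled to the 75th percentile the direction turned for PNMT (0.148956), PRLR (0.266982) and SOD3 (0.326042), and with processed signal so scaled for SLA-DRB1 (0.0236827). FTH1 moved from 0.01 to 0.77 and 0.86. The cause was not tested. With all probes of each gene counted, 24 of 76 list counts moved by over 1.5 times. Normexp on the median signal and fits without pigs with dim kidney arrays (24351), many outlier spots in liver (23302) or bright kidney ALB (23162) were chosen after seeing the data. The planned normexp on the mean signal was not run, because the files hold no such column. Signal over background limits folds to lower bounds where an organ was not measured on all 16 arrays, and values named as fitted are not such bounds.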
